A study of Mus musculus with 6 samples.

Results

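Interferon-induced genes were followed in prostates of mice with experimental autoimmune prostatitis (EAP), a model in which an immune response to prostate antigens inflames the gland. The list was chosen by gene symbol and held 38 genes, 37 named symbols and the RNA sensor RIG-I, which the table holds under its older symbol Ddx58. Of these, 36 had a row among the 18697 genes of the count table, and Mx1 and Mx2 were not analysed here. All 36 passed the low count filter, which kept 13753 genes.

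The VUF11207 group was EAP mice injected with VUF11207, a compound that activates CXCR7 (gene Ackr3), an atypical receptor for chemokines, intraperitoneally at 5 mg per kg per day for 14 days. The DMSO group was EAP mice injected with an equal amount of the solvent on the same schedule, which the labels also give as 5 mg per kg per day. Each group had 3 prostate libraries, and both groups carried the disease, so no healthy or uninjected gland entered. The sources used here give no strain, age or immunisation protocol. Of the DMSO libraries, replicates 2 and 3 were known by number, and the remaining one is called the unnumbered DMSO library because its column name carried no replicate number that could be matched.

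Interferons are secreted cytokines that switch on many genes of antiviral and antimicrobial defence. Type I interferons signal through the receptor chains IFNAR1 and IFNAR2 to a complex that holds STAT2 and IRF9 and binds the interferon-stimulated response element (ISRE), and interferon gamma, made mainly by T cells and NK cells, signals through IFNGR1 and IFNGR2 to a factor that binds the gamma-activated site (GAS). The programmes overlap. Here the Ifit and Oas families stood for the type I programme. The guanylate-binding proteins (Gbp), the immunity-related GTPases (Iigp1, Igtp, Irgm1), Tap1 and the immunoproteasome subunits Psmb8 and Psmb9 stood for the gamma-type programme.

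The motifs named for these programmes were searched for in the members' promoters, and a few promoters are printed to show how the motif cores lie before the start. RefSeq promoter windows of GRCm38.p6, from 250 bases before to 50 after each transcription start, were available for 27 of the 36 members. They were searched on both strands for the ISRE core GAAANNGAA, read as TTCNNTTTC on the other strand, and for the GAS core TTCNNNGAA, which reads the same on both strands. Matches of either core may overlap each other. An ISRE core was found for 18 of the 27 members (66.7%), against 9.76% of all 27025 genes with a window. For the Ifit and Oas families the count was 5 of 7, and for gamma-type members 6 of 9. A GAS core was found for 8 of the 27 members (29.6%), 4 of the 9 gamma-type and 2 of the 7 Ifit and Oas members among them, against 9.55% of all genes. A match is a run of letters and not a measured binding event.

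For each of the classes, the windows of the 2 members with the smallest p among those with a match are shown, Oas1a and Ifit1 for the type I families and Psmb8 and Gbp2 for the gamma type. They are given 5′ to 3′ in the direction of transcription, with ISRE and GAS cores in capitals.
Oas1a promoter, chr5:120907476-120907775, minus strand: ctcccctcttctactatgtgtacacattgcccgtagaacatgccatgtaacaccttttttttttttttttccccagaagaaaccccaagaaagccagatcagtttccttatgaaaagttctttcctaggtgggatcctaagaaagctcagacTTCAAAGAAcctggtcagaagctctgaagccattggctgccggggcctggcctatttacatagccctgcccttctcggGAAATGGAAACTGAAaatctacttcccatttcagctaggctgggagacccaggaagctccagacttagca
Ifit1 promoter, chr19:34640639-34640938, plus strand: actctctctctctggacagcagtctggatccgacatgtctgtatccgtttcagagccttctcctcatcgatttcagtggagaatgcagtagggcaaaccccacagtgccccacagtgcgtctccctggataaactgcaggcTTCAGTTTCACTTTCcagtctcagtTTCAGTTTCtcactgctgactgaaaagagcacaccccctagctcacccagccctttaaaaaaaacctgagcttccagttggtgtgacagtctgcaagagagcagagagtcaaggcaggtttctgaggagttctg
Psmb8 promoter, chr17:34197945-34198244, plus strand: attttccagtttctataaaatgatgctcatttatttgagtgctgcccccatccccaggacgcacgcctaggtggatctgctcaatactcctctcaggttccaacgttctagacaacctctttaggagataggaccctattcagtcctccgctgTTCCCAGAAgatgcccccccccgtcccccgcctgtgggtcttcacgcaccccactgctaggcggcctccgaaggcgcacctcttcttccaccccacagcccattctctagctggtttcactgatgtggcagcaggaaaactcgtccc
Gbp2 promoter, chr3:142620413-142620712, plus strand: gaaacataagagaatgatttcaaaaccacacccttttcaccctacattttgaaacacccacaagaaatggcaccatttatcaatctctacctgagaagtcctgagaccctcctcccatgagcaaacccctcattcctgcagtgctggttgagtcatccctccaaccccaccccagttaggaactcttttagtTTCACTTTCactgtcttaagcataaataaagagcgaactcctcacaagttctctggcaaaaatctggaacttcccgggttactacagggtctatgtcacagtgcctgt
Oas1a held a pair of overlapping ISRE cores that began 20 and 14 bases before the start, and a GAS core that began 98 bases before it. In Ifit1, 3 ISRE cores began 109, 103 and 84 bases before the start and no GAS core was found. Psmb8 had a GAS core 97 bases before the start and no ISRE core, and Gbp2 an ISRE core 58 bases before the start. The Psmb8 window follows its RefSeq start. It lies within the gene as the GENCODE M21 annotation of mm10 places it (34197721 to 34201454), so this core is not upstream of that annotated gene start.

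The largest number of ISRE cores in a window was 3, in Ifit1, Ifit3, Ifit3b and Isg15. The stretches that span these cores are given for comparison, again with the cores in capitals.
Ifit1, chr19:34640774-34640819, plus strand: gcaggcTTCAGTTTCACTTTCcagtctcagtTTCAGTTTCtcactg
Ifit3, chr19:34583368-34583441, plus strand: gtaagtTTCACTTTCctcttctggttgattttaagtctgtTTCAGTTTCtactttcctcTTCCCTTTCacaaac
Ifit3b, chr19:34607764-34607837, plus strand: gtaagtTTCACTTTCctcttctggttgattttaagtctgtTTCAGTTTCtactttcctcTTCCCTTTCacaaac
Isg15, chr4:156200870-156200902, minus strand: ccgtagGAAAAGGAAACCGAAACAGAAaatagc
The stretches of Ifit3 and Ifit3b had the same 74 bases. Their transcripts were also near copies, with 97.8% identity over 1700 aligned bases, and 51.2% of all runs of 50 bases in Ifit3 occurred unchanged in Ifit3b. Counts of this pair can therefore be split between them by the read counting, and the same holds for Oas1a and its neighbour Oas1g (97.5% identity over 1860 bases, 56.9% of 50-base runs shared).

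**Figure D1:**
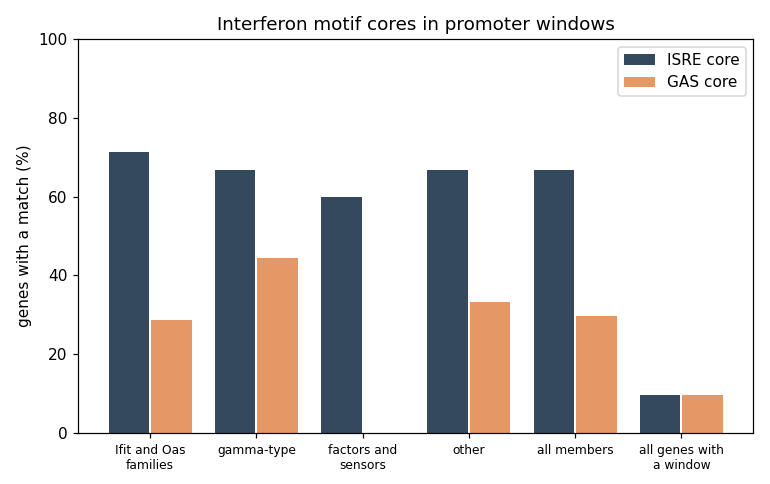
Percentage of genes with at least 1 match to the ISRE core (dark bars) or the GAS core (light bars) in their promoter window, for each class of members, all members and all genes with a window. The ISRE core was found for 66.7% of members with a window and 9.76% of all genes.

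Library totals ran from 23915765 to 29311438 counts with VUF11207 and from 20308018 to 33368058 with DMSO. Seminal vesicle secretory genes (Svs1 to Svs6) took 26.2%, 2.55% and 3.21% of counts in VUF11207 replicates 1, 2 and 3. They took 0.624%, 60.4% and 14.4% in the unnumbered DMSO library and DMSO replicates 2 and 3, so DMSO replicate 2 stood apart, with a TMM factor of 0.425. The 8 skeletal muscle markers summed to 4900, 1181 and 543.3 CPM with VUF11207, against 815.4, 411.5 and 4477 CPM with DMSO, in the same order of libraries. They were thus highest in VUF11207 replicate 1 and DMSO replicate 3. The epithelial genes Krt8, Krt18, Epcam and Hoxb13 were present in all 6 libraries at between 182 and 804.7 CPM, while the prostate secretory gene Pbsn ranged from 623 to 17690 CPM. CPM here is the TMM-scaled read count relative to a common library size. The labels do not say which mouse gave which library, and p-values therefore weigh the group difference only against the scatter of these libraries. The common biological coefficient of variation that edgeR estimated was 51.4%.

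No member passed the threshold between VUF11207 and DMSO in edgeR's quasi-likelihood test (adjusted p of 0.05 over all 13753 genes), and neither did any other gene, a background of 0%. Fitted values nevertheless lay mostly on one side. Of the 36 members, 34 had a log2 fold change above 0, against 44.7% of all genes tested, and 19 had one above 0.5, against 9.08%. The median over the members was 0.52, beside -0.04 over all genes. An unadjusted p under 0.05 toward higher values was found for 4 members (Ifi27, Irf7, Oas1a and Ifit1), against 0.953% of all genes, and toward lower values for 0 members, against 0.473% (1.43% of all genes in either direction). The adjusted p was 0.9999 for every member. DESeq2 called 0 members and had 5 higher at an unadjusted p under 0.05, against 1.43% of all genes higher in that test. In limma voom 0 were called and 3 were higher at that p, against 1.08%.

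The groups did not overlap for 7 members, all higher with VUF11207, against a background of 3.05% higher, and for 0 members lower, against 2.52%. These were Oas1a, Oas3, Oasl2, Tap1, Irf7, Dhx58 and Ifi27. An earlier view of these data had already shown that interferon-induced genes lean this way, so these shares are a description and no independent support. Single libraries carried much of it. Without VUF11207 replicate 3, 2 members remained at an unadjusted p under 0.05, against 0.646% of all genes higher, and without VUF11207 replicate 1 there were 9, against 1.06%. Members higher without overlap numbered 17 when VUF11207 replicate 1 was left out, 11 without DMSO replicate 2 and 14 without DMSO replicate 3. The background, which grows with fewer libraries, was 7.91%, 6.67% and 10.8%. They numbered 8 without VUF11207 replicate 2, 7 without VUF11207 replicate 3 and 10 without the unnumbered DMSO library. The background there was 6.55%, 6.18% and 7.05%. Without VUF11207 replicate 2, 1 member was lower without overlap. The share of all genes lower in that setting is not given here, so this count is not read as a result. With both libraries richest in seminal vesicle counts left out, VUF11207 replicate 1 and DMSO replicate 2, 34 of 36 members were above 0, against 47.1% of all genes, and 7 were higher at an unadjusted p under 0.05, against 0.441%.

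**Figure D2:**
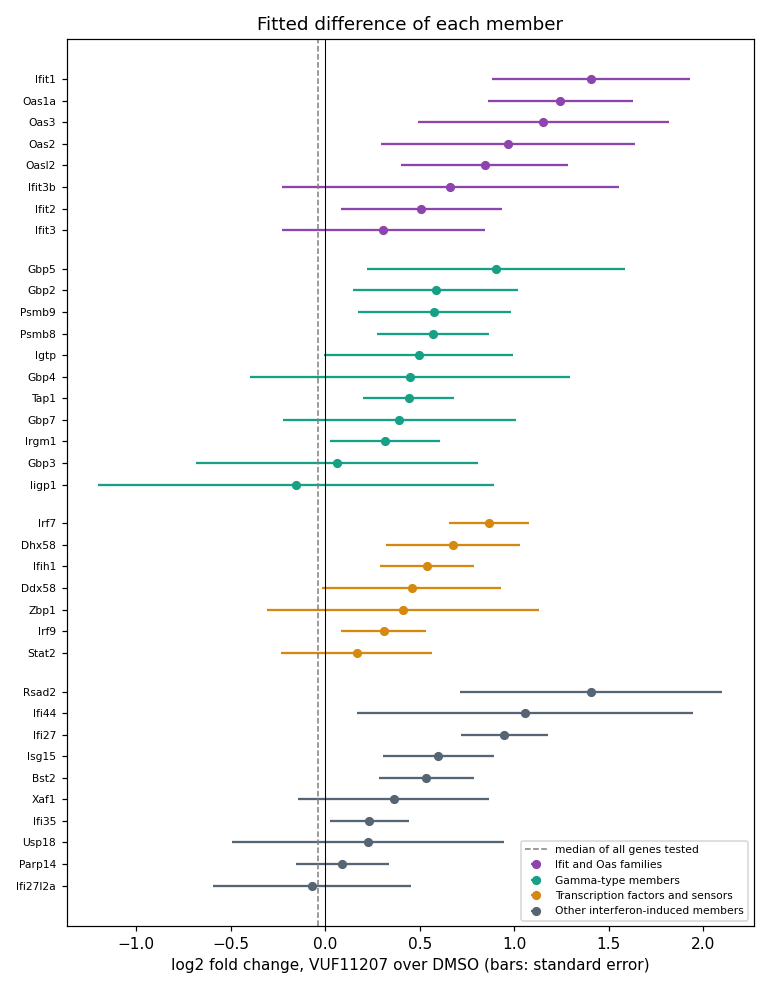
Fitted log2 fold change of VUF11207 over DMSO (horizontal axis) for the 36 members, grouped by class, with standard errors as bars and the median of all genes tested (-0.04) as a dashed line. All members but Iigp1 and Ifi27l2a lie above 0, and no member passed the threshold.

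The Ifit and Oas families encode proteins that act on foreign RNA, the Ifit proteins by binding it and the Oas enzymes by making the 2-5A messenger that activates RNase L. All 8 members of these families that had a row were above 0, and their log2 fold changes had a median of 0.91, ranging between 0.31 and 1.41. None passed the threshold. Oas1a (mm10 chromosome 5, 120896256 to 120907521), which makes 2-5A, had 12.3, 12.1 and 19.8 CPM in VUF11207 replicates 1, 2 and 3, against 3.55, 7.33 and 7.79 CPM in the unnumbered DMSO library and DMSO replicates 2 and 3. Every VUF11207 library was above every DMSO library, with means of 14.7 ± 4.38 CPM with VUF11207 and 6.22 ± 2.32 CPM with DMSO (SD, n = 3 each). Its log2 fold change was 1.24 ± 0.38 (SE), with a 95% interval from 0.33 to 2.15 and an unadjusted edgeR p of 0.0147.

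Ifit1, which binds RNA that lacks a methylated cap, had 13.5, 20.7 and 48.6 CPM with VUF11207, against 6.74, 10.1 and 14.3 CPM with DMSO, in the same order of libraries, which holds below as well. The groups overlapped, since VUF11207 replicate 1 lay under DMSO replicate 3, and VUF11207 replicate 3 was far above all others. The log2 fold change was 1.41 ± 0.52 (SE, unadjusted edgeR p 0.0324), and 0.71 without VUF11207 replicate 3.

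Oasl2, an Oas-like protein, stood at 18.6, 14.8 and 25.7 CPM with VUF11207, against 4.92, 13.3 and 14.7 CPM with DMSO. The groups did not overlap, but VUF11207 replicate 2 and DMSO replicate 3 were almost level. Oas3 was scarce, at 1.05, 1.04 and 0.947 CPM with VUF11207, against 0.185, 0.493 and 0.679 CPM with DMSO. Its libraries with VUF11207 were nearly equal and all above the DMSO libraries. The log2 fold changes were 0.84 ± 0.44 for Oasl2 and 1.15 ± 0.66 for Oas3 (SE).

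The other members of these families were Ifit2, Ifit3, Ifit3b and Oas2, with log2 fold changes of 0.51 ± 0.43, 0.31 ± 0.53, 0.66 ± 0.89 and 0.97 ± 0.67 (SE), and their groups overlapped. Ifit3 and Ifit3b, whose promoter stretches were identical above, followed VUF11207 replicate 3. Ifit3 had 9.47, 14.2 and 36.6 CPM with VUF11207, against 10.1, 19.2 and 19.5 CPM with DMSO. Ifit3b had 2.37, 2.18 and 9.94 CPM with VUF11207, against 0.629, 4.30 and 4.27 CPM with DMSO. Without VUF11207 replicate 3 the log2 fold changes turned to -0.46 for Ifit3 and -0.43 for Ifit3b.

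**Figure D3:**
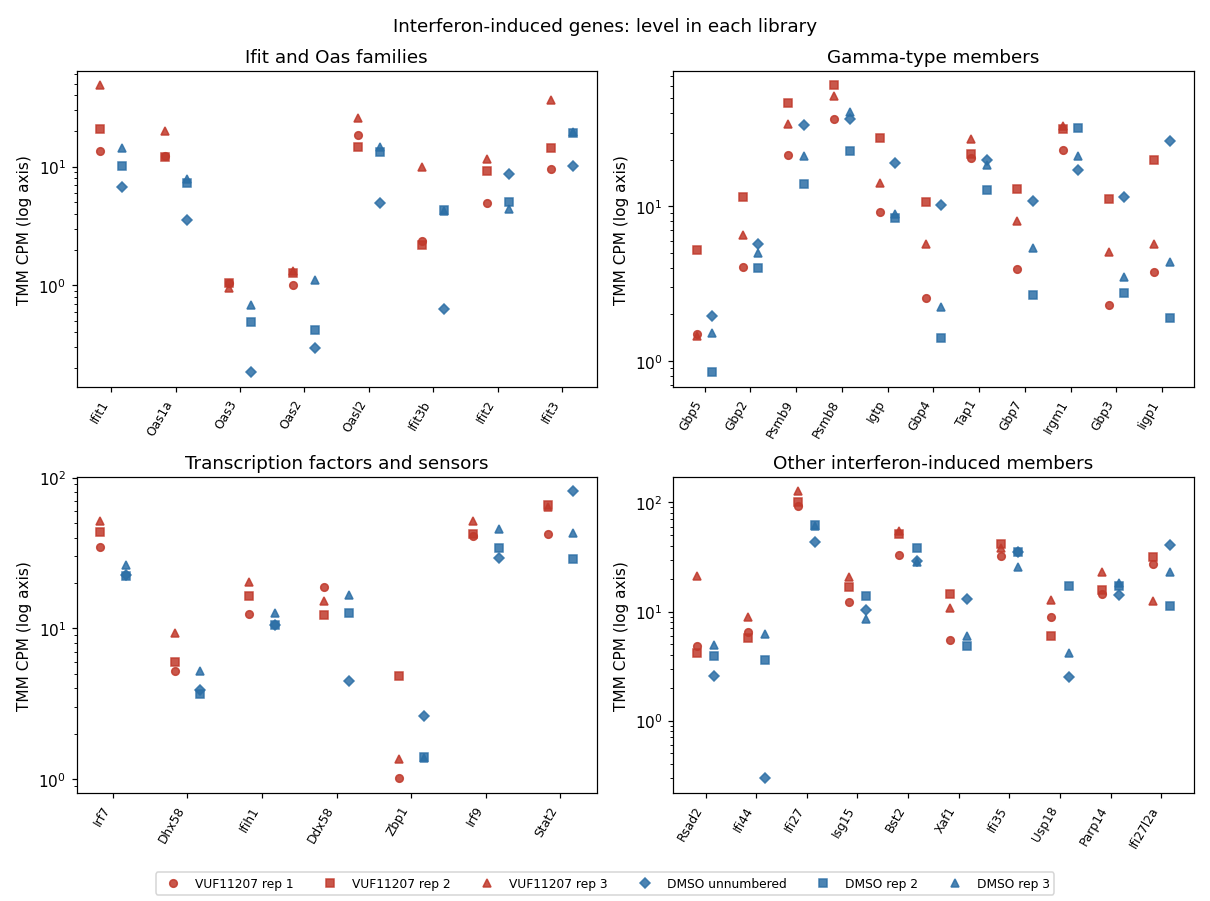
TMM CPM (vertical log axes) of each of the 36 members in VUF11207 libraries (red, left of each pair) and DMSO libraries (blue, right), 1 panel per class, with marker shape giving the library. The groups do not overlap for Oas1a, Oas3, Oasl2, Tap1, Irf7, Dhx58 and Ifi27.

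For gamma-type members the log2 fold changes lay between -0.15 and 0.90 around a median of 0.45, and 10 of 11 were above 0. None had an unadjusted p under 0.05. Psmb8, the immunoproteasome subunit that replaces a constitutive one to favour peptides for MHC class I, had 36.5, 60.7 and 51.4 CPM with VUF11207, against 36.5, 22.8 and 40.8 CPM with DMSO. The groups overlapped because DMSO replicate 3 lay above VUF11207 replicate 1. Its log2 fold change was 0.57 ± 0.30 (SE, unadjusted edgeR p 0.0961).

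Psmb9, the companion subunit, had 21.3, 46.5 and 34.3 CPM with VUF11207, against 33.3, 14.0 and 21.0 CPM with DMSO. The groups overlapped, with the unnumbered DMSO library above VUF11207 replicate 1. Tap1, a subunit of the transporter that carries those peptides into the endoplasmic reticulum, had 20.5, 21.9 and 27.2 CPM with VUF11207, against 19.9, 12.8 and 18.5 CPM with DMSO. It was the only gamma-type member whose groups did not overlap, and VUF11207 replicate 1 was above the unnumbered DMSO library by little. Log2 fold changes were 0.58 ± 0.40 for Psmb9 and 0.44 ± 0.24 for Tap1 (SE). These 2 genes are neighbours in head-to-head orientation, and 212 exonic bases lie in both in the GENCODE M21 annotation of mm10, so reads there cannot be told apart if strand was not used.

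Gbp2, a guanylate-binding GTPase that coats the vacuoles of intracellular microbes, had 4.02, 11.5 and 6.56 CPM with VUF11207, against 5.70, 4.02 and 4.98 CPM with DMSO. VUF11207 replicate 2 was the highest library and VUF11207 replicate 1 was among the DMSO libraries. The fitted log2 difference was 0.58 ± 0.44 (SE) and shrank to 0.11 when VUF11207 replicate 2 was left out.

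Iigp1, a GTPase of the same defence, had a fitted value below 0. It had 3.75, 20.0 and 5.68 CPM with VUF11207, against 26.4, 1.90 and 4.36 CPM with DMSO. A single library in each group, VUF11207 replicate 2 and the unnumbered DMSO library, was well above the rest, and the groups overlapped throughout. The log2 fold change of -0.15 ± 1.05 (SE) was -1.20 without VUF11207 replicate 2 and 1.63 without the unnumbered DMSO library.

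Gbp3, Gbp4 and Gbp7, named after their values were seen, peaked in the same pair of libraries. Gbp4, for example, had 2.57, 10.6 and 5.72 CPM with VUF11207, against 10.1, 1.41 and 2.23 CPM with DMSO. Log2 fold changes were 0.06 ± 0.75 for Gbp3, 0.45 ± 0.84 for Gbp4 and 0.39 ± 0.62 for Gbp7 (SE), and without VUF11207 replicate 2 they were -0.68, -0.15 and -0.08. The remaining gamma-type members, Gbp5, Igtp and Irgm1, had values of 0.90 ± 0.68, 0.50 ± 0.50 and 0.32 ± 0.29 (SE).

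The median of the gamma-type members thus rested on a few libraries. It was 0.0247 without VUF11207 replicate 2, 0.98 without the unnumbered DMSO library and 0.78 without VUF11207 replicate 1. Without VUF11207 replicate 2, 6 of 11 gamma-type members were above 0, and all 8 members of the Ifit and Oas families still were. For the Ifit and Oas families the median ran from 0.66 without VUF11207 replicate 3 to 1.28 without DMSO replicate 3.

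The programmes therefore ranked the libraries differently. To show this, each gene's log2 CPM was centred on its average across the libraries, and the centred values were averaged per class and library. The Ifit and Oas families had levels of 0.01, 0.25 and 1.06 in VUF11207 replicates 1, 2 and 3, against -1.15, -0.22 and 0.05 in the unnumbered DMSO library and DMSO replicates 2 and 3. Gamma-type members had levels of -0.46, 0.96 and 0.20 with VUF11207, against 0.50, -0.86 and -0.35 with DMSO. The groups overlapped for both classes. The type I level minus the gamma-type level was 0.47, -0.71 and 0.86 with VUF11207, against -1.65, 0.64 and 0.40 with DMSO, so the balance between the programmes overlapped between the groups as well.

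Counted by gene, VUF11207 replicate 3 was the highest library for 7 of 8 Ifit and Oas members but for 2 of 11 gamma-type members, for which VUF11207 replicate 2 was highest in 7. Over all 36 members VUF11207 replicate 3 was highest for 19 (52.8%), against 15.9% of all genes tested, and DMSO replicate 3 for 0, against 13.1%. The lowest library was the unnumbered DMSO library for 6 of 8 Ifit and Oas members, against 28% of all genes tested. It was DMSO replicate 2 for 9 of 11 gamma-type members, against 19.8% of all genes tested. DMSO replicate 2 was also the library with most seminal vesicle counts.

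**Figure D4:**
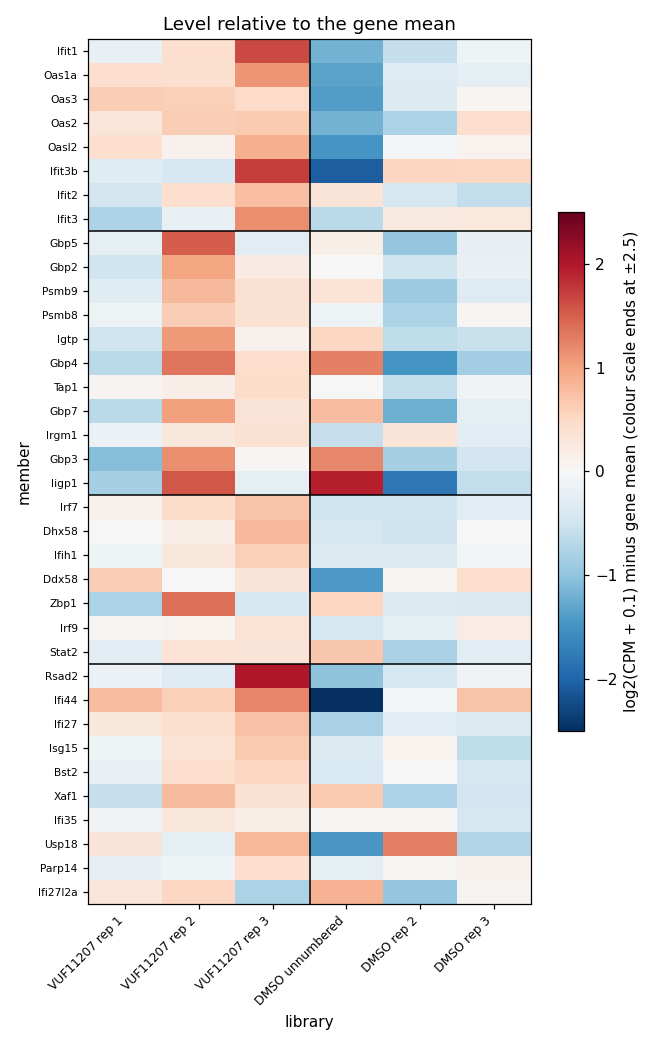
Level of each of the 36 members (rows, grouped by class with black lines) in each library (columns, VUF11207 left), as log2(CPM + 0.1) minus the gene's mean over the 6 libraries. All Ifit and Oas rows but Oas3 are darkest red in VUF11207 replicate 3, while Gbp and Iigp1 rows are red in VUF11207 replicate 2 and, for several, in the unnumbered DMSO library.

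The 4 interferon genes with a row had few reads or none. Interferon gamma (Ifng) had 0, 12 and 0 read counts in VUF11207 replicates 1, 2 and 3, against 25, 0 and 0 in the unnumbered DMSO library and DMSO replicates 2 and 3. The 2 libraries with Ifng reads were those with the highest gamma-type levels. Where no read was found, a count of 0 allows up to 3 reads, or 0.101 CPM in VUF11207 replicates 1 and 3, 0.211 CPM in DMSO replicate 2 and 0.097 CPM in DMSO replicate 3, for counting error only. Ifnb1 and Ifne had 0 reads in all 6 libraries, Ifnz had between 0 and 4, and the other 17 ligands listed were not analysed here.

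The mean level of T cell markers was also highest in those 2 libraries. Of 13 markers listed, 11 had a row and 8 passed the filter, and their level was -0.69, 1.22 and -0.76 with VUF11207, against 1.11, -1.05 and 0.17 with DMSO. Their summed level was 6.12, 25.3 and 6.70 CPM with VUF11207, against 20.8, 5.71 and 11.5 CPM with DMSO. Cd3d, Cd3e and Cd3g, which form the T cell receptor complex, were detected in all 6 libraries, and Cd28 was at 0 in VUF11207 replicates 1 and 3 and in DMSO replicate 2. Single T cell markers differed, with Cd8a lowest in VUF11207 replicate 2 (0.268 CPM) and Cd4 highest in DMSO replicate 3 (4.20 CPM). Prostate epithelial markers were also highest in the 2 libraries with Ifng reads. Their levels were -0.62, 0.55 and 0.29 with VUF11207, against 0.88, -0.68 and -0.42 with DMSO. Macrophage and monocyte markers, given below, peaked there too. B cell levels were -1.64, 1.55 and -0.25 with VUF11207, against 0.34, -1.06 and 1.07 with DMSO. Of 6 NK cell markers only Gzma passed the filter, with 0 reads in the unnumbered DMSO library. In bulk tissue, fewer cells of a type and less RNA per cell cannot be told apart, and the part of cell content in these results was not tested.

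Markers of other immune cells were listed as well. Of 6 markers of plasmacytoid dendritic cells, which make type I interferon, 5 passed the filter, with 4 below 0 and 1 above. Their levels were 0.51, -0.53 and -0.18 with VUF11207, against -0.53, -0.58 and 1.31 with DMSO, so the groups overlapped. Cox6a2 of this list had 46.5, 0.101 and 4.77 CPM with VUF11207, against 0.037, 0.141 and 48.4 CPM with DMSO. Ly6d was also highest in VUF11207 replicate 1 and DMSO replicate 3 (7.71 and 6.66 CPM). Skeletal muscle markers were highest in those libraries too, so the level of this list cannot be read as that of these cells alone. Siglech, a defining marker with 2 to 41 reads, was at 0.0676, 0.369 and 0.440 CPM with VUF11207. With DMSO it was at 1.52, 0.352 and 0.549 CPM. Pld4 had 3.79, 9.23 and 2.16 CPM with VUF11207, against 10.3, 4.23 and 6.27 CPM with DMSO. Ccr9 was at 0 in VUF11207 replicate 1 and the unnumbered DMSO library. Of the 14 macrophage and monocyte markers, 13 had a log2 fold change below 0, with a median of -0.48 and levels of -0.42, 0.56 and -0.86 with VUF11207, against 0.59, -0.13 and 0.27 with DMSO. VUF11207 replicate 3, highest for the Ifit and Oas families, was the lowest library for these markers. All 8 neutrophil markers had a row, of which 3 passed the filter and all 3 were below 0. The summed level of the list was 1.18, 2.95 and 0.473 CPM with VUF11207, against 14.7, 10.1 and 4.17 CPM with DMSO, and the groups did not overlap. In the DMSO libraries most of that sum came from S100a8 and S100a9. Csf3r, the other marker tested, overlapped, with 0.338, 1.24 and 0.237 CPM with VUF11207, against 1.78, 0.211 and 0.776 CPM with DMSO. S100a8 and S100a9, calcium-binding proteins abundant in neutrophils, had log2 fold changes of -3.005 ± 0.689 and -3.56 ± 1.16 (SE), with an adjusted edgeR p of 0.9999 for each, while Ly6g was at 0 in all 6 libraries. The part of these cells in the result was not tested.

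**Figure D5:**
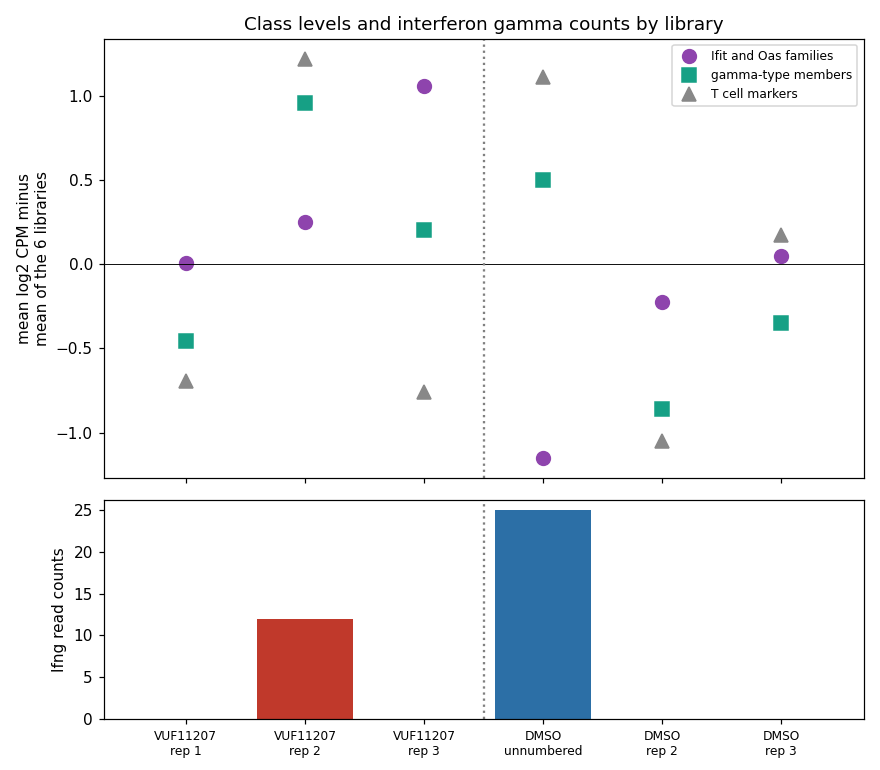
Upper panel, level of the Ifit and Oas families (circles), gamma-type members (squares) and T cell markers (triangles) in each library, as mean centred log2 CPM, and lower panel, read counts of Ifng (VUF11207 red, DMSO blue). Ifng was counted in VUF11207 replicate 2 (12 reads) and the unnumbered DMSO library (25 reads), where gamma-type and T cell levels were highest.

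The 7 members that are transcription factors or sensors of the pathway were all above 0, against 44.7% of all genes tested. Their median log2 fold change was 0.46. This holds for the listed members only. Outside the list, 4 of 10 STAT and IRF factors and inhibitors and 8 of 16 nucleic acid sensing genes were above 0, as given below. Irf7 (mm10 chromosome 7, 141262706 to 141266481), the factor that amplifies type I interferon production, had 34.4, 43.6 and 51.9 CPM with VUF11207, against 22.5, 22.4 and 26.4 CPM with DMSO. The groups were well apart, and the DMSO libraries were nearly equal, with means of 43.3 ± 8.73 CPM with VUF11207 and 23.8 ± 2.27 CPM with DMSO (SD, n = 3 each). Its log2 fold change was 0.86 ± 0.21 (SE, 95% interval 0.36 to 1.37, unadjusted edgeR p 0.00498), and it stayed between 0.71 and 1.03 with any 1 library left out. In its promoter window neither core was found. Its exons share 45 bases with those of Phrf1 in that annotation.

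Ifih1, which encodes the double-stranded RNA sensor MDA5, had 12.4, 16.3 and 20.2 CPM with VUF11207, against 10.5, 10.5 and 12.7 CPM with DMSO. VUF11207 replicate 1 lay just under DMSO replicate 3. Dhx58, which encodes the related regulator LGP2, had 5.24, 5.97 and 9.30 CPM with VUF11207, against 3.92, 3.66 and 5.24 CPM with DMSO. VUF11207 replicate 1 exceeded DMSO replicate 3 by a margin too small to show at 3 digits, so the groups were separate by almost nothing. Log2 fold changes were 0.54 ± 0.25 for Ifih1 and 0.68 ± 0.35 for Dhx58 (SE).

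Irf9, the DNA-binding part of the type I complex, had 40.9, 42.5 and 51.6 CPM with VUF11207, against 29.3, 33.9 and 45.6 CPM with DMSO. The groups overlapped. Its partner Stat2 had a log2 fold change of 0.17 ± 0.40 (SE) and was highest in the unnumbered DMSO library. Ddx58 and the nucleic acid sensor Zbp1 stood at 0.46 ± 0.47 and 0.41 ± 0.72 (SE). Zbp1 turned to -0.61 without VUF11207 replicate 2, the library in which it was highest.

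The last class held other interferon-induced proteins, 9 of 10 above 0 with a median log2 fold change of 0.45. Ifi27, a mitochondrial membrane protein and one of the most interferon-responsive human genes, had 92.7, 100.3 and 126.7 CPM with VUF11207, against 43.4, 62.3 and 60.3 CPM with DMSO. No libraries overlapped and the gap between the groups was wider than the range within DMSO, with means of 106.6 ± 17.8 CPM with VUF11207 and 55.3 ± 10.3 CPM with DMSO (SD, n = 3 each). The log2 fold change was 0.95 ± 0.23 (SE, 95% interval 0.40 to 1.49, unadjusted edgeR p 0.00488), and it stayed between 0.80 and 1.06 with any 1 library left out.

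Bst2, the tetherin protein that holds budding viruses at the cell surface, had 33.3, 51.4 and 54.6 CPM with VUF11207, against 29.3, 38.5 and 28.5 CPM with DMSO. VUF11207 replicate 1 fell within the DMSO range. Isg15, the ubiquitin-like modifier, had 12.2, 16.8 and 20.7 CPM with VUF11207, against 10.4, 14.0 and 8.50 CPM with DMSO, and there too VUF11207 replicate 1 fell within the DMSO range. Log2 fold changes were 0.53 ± 0.25 for Bst2 and 0.60 ± 0.30 for Isg15 (SE).

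Rsad2, the antiviral enzyme viperin, had 4.80, 4.19 and 21.4 CPM with VUF11207, against 2.59, 3.88 and 4.98 CPM with DMSO. Its log2 fold change of 1.41 ± 0.69 (SE) was as large as that of Ifit1 but came from VUF11207 replicate 3, and it was 0.24 without that library. Ifi27l2a, a relative of Ifi27, had 27.1, 31.6 and 12.6 CPM with VUF11207, against 40.5, 11.2 and 22.98 CPM with DMSO, a log2 fold change of -0.07 ± 0.52 (SE). Ifi27 and Ifi27l2a lie side by side in mm10, from 103434211 to 103440239 and from 103442167 to 103443680 of chromosome 12, on opposite strands. The other 5 members of this class (Ifi44, Xaf1, Ifi35, Usp18 and Parp14) had log2 fold changes between 0.09 and 1.06. Usp18, the protease that removes Isg15, was highest in DMSO replicate 2 at 17.0 CPM and stood at a log2 fold change of 1.46 without that library.

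Compared per length of exon, as mean CPM per kb, the most abundant members were Ifi27 (72.7 with VUF11207 and 37.7 with DMSO), Bst2 (51.4 and 35.5) and Ifi27l2a (51.3 and 53.8). Isg15 had 21.9 with VUF11207 and 14.5 with DMSO on this scale. The scarcest were Oas2 (0.270 and 0.136) and Oas3 (0.143 and 0.0640). All 36 rows together took between 0.0206% and 0.101% of a library's counts, the lowest share being that of DMSO replicate 2.

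Upstream of the members stand the receptors, kinases and transcription factors. Of 9 receptor chains and kinases, 0 passed the threshold and 8 were below 0, with a median log2 fold change of -0.18. Ifnar1, a chain of the type I receptor, had 19.5, 21.0 and 21.98 CPM with VUF11207, against 40.7, 25.0 and 24.2 CPM with DMSO. The groups did not overlap, with VUF11207 lower, as was so for 2.52% of all genes, and the log2 fold change was -0.53 ± 0.25 (SE). The kinase Tyk2 and the receptor chain Ifngr1 stood at -0.41 ± 0.23 and -0.59 ± 0.47 (SE).

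Of 10 STAT and IRF factors and inhibitors, 0 passed and 4 were above 0, with a median of -0.10. Socs1, a feedback inhibitor of JAK kinases, had a log2 fold change of 0.62 ± 0.37 (SE). Irf3, the factor that nucleic acid sensors activate, was at -0.39 ± 0.24 and the gamma-induced factor Irf1 at 0.20 ± 0.31 (SE). Of 16 nucleic acid sensing genes, 0 passed and 8 were above 0, with a median of -0.00102. Among them the adaptor Sting1 had 24.0, 23.5 and 38.3 CPM with VUF11207, against 14.5, 13.7 and 21.7 CPM with DMSO, without overlap, and a log2 fold change of 0.78 ± 0.29 (SE). The RNA receptor Tlr7 stood at -1.40 ± 0.74 and the kinase Tbk1 at -0.35 ± 0.23 (SE).

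Interferon-induced genes outside the list were counted in the same fit. Of 49 further type I genes tested, 0 passed, 29 were above 0 and the median was 0.18. Of 28 further gamma-type genes 0 passed, 15 were above 0 and the median was 0.03. Over all genes tested, 44.7% were above 0 and the median was -0.04. In the first list Apol9a, which averaged under 2 CPM in both groups, was at 2.56 ± 0.76, the receptor transporter gene Rtp4 at 0.86 ± 0.27 and Parp9, an ADP-ribosyltransferase family member, at -0.74 ± 0.28 (log2 fold change, SE). In the second list the GTPase genes Irgm2 and Tgtp1 were at 1.03 ± 0.36 and 1.44 ± 0.66 and Tap2, the partner of Tap1, at 0.45 ± 0.18 (SE). B2m, the light chain of MHC class I, named after its values were seen, had 4333, 2187 and 3044 CPM with VUF11207, against 1802, 15190 and 2672 CPM with DMSO. Its peak was in DMSO replicate 2, the library richest in seminal vesicle counts. There 9 of 11 gamma-type members were lowest, against 19.8% of all genes tested.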

How the data were processed

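Prostate RNA was sequenced in 6 libraries. TRIzol extraction and the VAHTS Universal V6 RNA-seq kit were used, per the labels' protocols. The tools were fastp, HISAT2 and HTSeq on the build mm10, per the submitters' processing notes, which carry no versions. How multi-gene reads were handled, which annotation was used and whether strand was counted is not given in the sources used here. The deposited values are whole-number read counts per gene, not normalised. In 5 libraries with a file of their own these counts were identical to the series table.

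Counts were filtered with filterByExpr, scaled by TMM and tested with edgeR 4.0.16 (quasi-likelihood, robust, two-sided, Benjamini-Hochberg adjustment over all genes), in R 4.3.3, and the test was tried on simulated data. Standard errors were the absolute log2 fold change over the root of F. Exact permutation of 3 against 3 libraries gives p of 0.1 at the lowest and was not used. Levels used log2 CPM with a prior count of 2. Alternatives were DESeq2 1.42.0, limma 3.58.1 voom, other scaling and filters, a replicate block and leaving out libraries. Members in the text were the 4 with the smallest p in each class, those without overlap and those below 0, and others are said to be named after their values were seen or belong to a class given in full. Of each further list, the 3 genes with the smallest p, and Ifnb1, Ifng and Irf1, were named, and a result that this rule names is not reported here. Members and lists were chosen with earlier results of these data known. A planned comparison of proteins was not run, and transcripts were compared instead, with Biopython 1.88.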

Additional observations from a re-analysis of the deposited data

How the results depend on the processing

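With any 1 library left out, 0 genes and 0 members passed the threshold in edgeR, between 2 (without VUF11207 replicate 3, against 0.646% of all genes) and 9 (without VUF11207 replicate 1, against 1.06%) members were higher at an unadjusted p under 0.05, and the median log2 fold change of the members ran from 0.406 to 0.808. Among all genes DESeq2 called 4 and scaling by library totals alone called 3, none of them a member. That scaling moved the median of all genes to 0.144, with the members at 0.689. With the replicate number as a block over the 4 libraries that share numbers, which leaves out VUF11207 replicate 1 and the unnumbered DMSO library, 12 members had an unadjusted p under 0.05, all higher, against 2.48% of all genes higher and 3.57% lower, the members' median was 0.881 and the gamma-type median 1.23, and 0 members passed. The left-out libraries have no known replicate number in common, but their column names end in the same number. A block over all libraries was not run. The sources do not say that any of these numbers pair libraries. Correlations of the deviations were -0.332 for replicates 2 and 0.0525 for replicates 3. For unlike numbers they were -0.53 (VUF11207 replicate 2 with DMSO replicate 3) and 0.158 (VUF11207 replicate 3 with DMSO replicate 2). With so few libraries these values cannot decide whether a pairing exists. In the fit with the replicate block Iigp1 (1.84), Ddx58 (-0.0719) and Ifi27l2a (0.317) changed sign. Without both libraries richest in seminal vesicle counts 7 members had an unadjusted p under 0.05, all higher, against 0.441% of all genes, and no member changed sign. In limma voom Gbp3 (-0.015) and Iigp1 (0.0972) changed sign. With 1 library left out, 12 members changed sign at least once, with ranges of -0.678 to 0.976 for Gbp3, -0.148 to 1.78 for Gbp4, -0.0789 to 1.04 for Gbp7, -1.20 to 1.63 for Iigp1, -0.0426 to 0.981 for Igtp, -0.456 to 0.671 for Ifit3, -0.428 to 1.01 for Ifit3b, -0.101 to 0.674 for Stat2, -0.609 to 0.811 for Zbp1, -0.197 to 1.46 for Usp18, -0.407 to 0.472 for Ifi27l2a and -0.135 to 0.240 for Parp14. The causes were not tested. With 3 libraries a group and this spread, differences of the size fitted here were seldom separable from it, and Oas2, Oas3 and Apol9a rest on few reads.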
